A study of Mus musculus with 2 samples.

Results

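The genes described here are 7 Wnt ligands (Wnt3, Wnt4, Wnt7b, Wnt10a, Wnt10b, Wnt11 and Wnt16), the transcription factors Lef1 and Tcf7, and Axin2, a transcriptional target of the pathway. On the mouse build mm10, Wnt4 lies on the plus strand of chromosome 4 at 137277489 to 137299726, Axin2 on chromosome 11 at 108920349 to 108950783 and Lef1 on chromosome 3 at 131110471 to 131224356. The genes were chosen by name, and all 10 were found among the 31053 genes of the count tables, of which 21169 had a UMI (unique molecular identifier, 1 captured RNA molecule) in a retained cell. The tissue was skin of male and female C57Bl6 mice aged 8 weeks. One group received an intradermal injection of 100 ng sitagliptin, an inhibitor of the peptidase Dpp4, in 100 µl PBS, and the other received PBS alone. The labels give a time of 48 h but no event from which it was counted, and no number of animals. Droplet-based 10x Chromium sequencing of polyadenylated RNA gave 1 library for each treatment.

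With 1 library per treatment there is no replicate check, so no test was made and intervals cover counting error only. A letter in each library's file names is the initial of the other treatment. The libraries are therefore called sitagliptin-labelled and PBS-labelled, values "with sitagliptin" or "with PBS" are those of the library so labelled, and an exchange of the labels would turn every direction below. Retained cells numbered 18380 with a median of 2197 UMIs in the sitagliptin-labelled library and 5932 with a median of 6902 UMIs in the PBS-labelled library. In all, 41 retained barcodes occurred in both. Keratinocytes and other cells were sorted into classes by their markers after clustering without the 10 genes. The 8 macrophage markers summed to between 3.21 and 9.25 UMIs per 1000000 UMIs (CPM) in the 4 keratinocyte classes compared below in the sitagliptin-labelled library and to between 90.7 and 180 CPM in the PBS-labelled library, and all 8 were lower in the sitagliptin-labelled library in each class. Markers of other cells did not all go this way. In suprabasal cells 7 of 8 fibroblast markers were lower with sitagliptin, while 6 of 8 T cell markers were higher. All 6 melanocyte markers were higher there, in sum 15 CPM with sitagliptin and 5.31 CPM with PBS. In basal cells 7 of 8 fibroblast, 4 of 8 T cell and 3 of 6 melanocyte markers were lower with sitagliptin. The part of free RNA of other cells in the values below was not tested.

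Wnt proteins are lipid-modified secreted ligands that bind Frizzled receptors and Lrp5 or Lrp6 on neighbouring cells. In the canonical branch this stabilises β-catenin, which joins DNA-binding factors of the TCF family, Lef1 and Tcf7 among them, and switches on targets such as Axin2, itself a brake on the pathway. In mouse skin the pathway is known for maintaining basal epidermal stem cells and for starting hair follicle growth.

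Promoter sequences were searched for the core letters recognised by TCF factors. RefSeq windows on GRCm38.p6 from 250 bases before to 50 bases after a transcription start were found for 8 of the 10 genes, 13 windows in all. The search took both strands. CTTTGAT occurred in 3.73% of the 32851 windows of the table, CTTTGTT in 5.85%, CTTTGAA in 5.14% and CTTTGTA in 3.63%, and no pair of these motifs can match at the same place on a strand. At least 1 of them was present in 16.9% of the windows, and 3 of the 13 windows held 1, a window each of Wnt3, Wnt11 and Lef1. The 250 bases before a start are printed for the target gene Axin2, for Lef1 at the first of its windows, and for Wnt11, whose match begins at position -51 relative to the start. They lie on the plus strand at chr11:108920099-108920348, chr3:131110047-131110296 and chr7:98834862-98835111, and capitals mark the motif, here CTTTGAT read on the other strand.
Axin2: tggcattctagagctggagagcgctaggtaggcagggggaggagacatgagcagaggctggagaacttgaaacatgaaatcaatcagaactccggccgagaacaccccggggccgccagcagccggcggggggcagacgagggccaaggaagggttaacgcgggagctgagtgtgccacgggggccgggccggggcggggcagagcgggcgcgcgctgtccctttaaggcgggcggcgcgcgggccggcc
Lef1: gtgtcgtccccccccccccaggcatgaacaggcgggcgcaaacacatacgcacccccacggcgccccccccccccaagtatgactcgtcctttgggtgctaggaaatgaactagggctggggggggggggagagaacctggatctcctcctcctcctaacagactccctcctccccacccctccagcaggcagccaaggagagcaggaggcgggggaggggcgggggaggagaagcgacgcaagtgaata
Wnt11: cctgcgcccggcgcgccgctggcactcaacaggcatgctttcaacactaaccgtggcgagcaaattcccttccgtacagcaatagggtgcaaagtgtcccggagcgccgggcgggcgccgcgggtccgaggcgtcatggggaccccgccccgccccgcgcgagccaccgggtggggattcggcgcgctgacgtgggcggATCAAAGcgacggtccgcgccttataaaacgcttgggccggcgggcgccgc
The stretches of Axin2 and Lef1 hold none of these letters, and a match describes the sequence and not a bound site.

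The classes compared between the libraries were basal keratinocytes of the epidermis (1349 cells with sitagliptin and 1210 with PBS), suprabasal keratinocytes (5410 with sitagliptin and 1046 with PBS), upper follicle keratinocytes (2025 with sitagliptin and 1042 with PBS) and outer root sheath or bulge keratinocytes (1300 with sitagliptin and 207 with PBS). Most suprabasal cells of the sitagliptin-labelled library lay in clusters led by Gm42418 and by Cdsn, while those of the PBS-labelled library lay mainly in clusters led by Mt4 and by Krt16. The Gm42418-led cluster held 2710 cells at a median of 1849.5 UMIs with sitagliptin and 31 cells with PBS. The Cdsn-led cluster held 1070 cells with sitagliptin and 27 with PBS. Suprabasal ratios below therefore set partly unlike cells side by side. Further keratin-bearing clusters kept no class name and are called by their leading gene. A Malat1-led cluster of few UMIs per cell held 5058 cells with sitagliptin and 18 with PBS and was not compared. The Krt77-led cluster (602 cells at a median of 17474 UMIs with sitagliptin, and 188 cells at 22713.5 UMIs with PBS) scored alike for basal and suprabasal markers, and the Rflnb-led cluster (251 cells with sitagliptin and 69 with PBS) scored alike for outer root sheath and basal markers. The Dct-led cluster held 190 cells with sitagliptin and 108 with PBS. Of all marker lists it scored highest for melanocytes and next for outer root sheath or bulge, and it is not counted as a keratinocyte class. It carried Lgr5, a follicle stem cell gene, at 241 CPM with sitagliptin and 220 CPM with PBS, and Krt14 at 4950 CPM with sitagliptin and 3210 CPM with PBS. Although Dct is a melanocyte gene, 166 of these cells with sitagliptin and 69 with PBS had no UMI of Dct, Pmel, Tyrp1, Mlana or Tyr, called melanocyte UMIs below. Mitf, also on the melanocyte list, was not part of this screen.

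Of the ligands, Wnt4, which acts in the development of several organs and is made by epidermal keratinocytes, had its highest level in basal cells. It reached 401 CPM (95% Poisson interval 387 to 416) there in the sitagliptin-labelled library and 472 CPM (459 to 484) in the PBS-labelled library. In suprabasal cells it had 149 CPM with sitagliptin and 174 CPM with PBS, and in the upper follicle 110 CPM with sitagliptin and 130 CPM with PBS. The outer root sheath or bulge had 93.9 CPM with sitagliptin and 119 CPM with PBS. The order of the 4 classes was thus the same in both libraries, although the intervals of the last 2 classes overlapped in the PBS-labelled library. The basal level was 2.69-fold (2.57 to 2.82) the suprabasal level in the sitagliptin-labelled library and 2.71-fold (2.58 to 2.85) in the PBS-labelled library. Macrophage-like cells, taken as a type that should lack the ligand, carried 71.8 CPM in the PBS-labelled library. That value is a gauge of free RNA, and the Dct-led cluster of the same library lay below it at 54.8 CPM. Of the 31-base words at the annotated 3' end of Wnt4, 28.5% also occurred in other genes, most often Glo1, whereas none was shared for the other 9 genes.

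Wnt10a, a ligand whose loss affects skin appendages and teeth in humans, followed the basal keratins. It had 151 CPM (142 to 160) in basal cells of the sitagliptin-labelled library and 165 CPM (158 to 172) in those of the PBS-labelled library. Unlike Wnt4, it was lower in suprabasal cells (37.5 CPM with sitagliptin and 33.3 CPM with PBS) than in the upper follicle (56.0 CPM with sitagliptin and 65.4 CPM with PBS). The upper follicle level was 1.49-fold (1.36 to 1.64) the suprabasal level with sitagliptin and 1.96-fold (1.74 to 2.21) with PBS. Over the 20 clusters with at least 50 cells in the PBS-labelled library, the gene most like Wnt10a was Krt14, the keratin of basal cells (Pearson r = 0.956 of log2(CPM + 1), and 0.913 over 22 clusters of the sitagliptin-labelled library). These clusters share a library and its free RNA, so the coefficients are a description.

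Wnt3, a canonical ligand, and Wnt7b, a ligand that acts over short distances, shared a different pattern, present in both epidermal layers and low in the upper follicle. Wnt3 had 77.7 CPM with sitagliptin and 85.9 CPM with PBS in basal cells and 56.7 CPM with sitagliptin and 64.1 CPM with PBS in suprabasal cells. In the upper follicle it had 14.1 CPM with sitagliptin and 15.9 CPM with PBS. The suprabasal level was thus 4.01-fold (3.46 to 4.67) that of the upper follicle with sitagliptin and 4.02-fold (3.43 to 4.74) with PBS. For Wnt7b the same ratio was 8.13-fold (6.64 to 10.1) with sitagliptin and 6.23-fold (5.12 to 7.64) with PBS. In the upper follicle both genes lay close to the macrophage-like level of the PBS-labelled library, which was 15.6 CPM for Wnt3 and 13.4 CPM for Wnt7b.

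Wnt7b differed from Wnt3 and Wnt4 in where it was highest. Its level in the Rflnb-led cluster was 96.2 CPM (76.4 to 120) in the sitagliptin-labelled library and 157 CPM (117 to 207) in the PBS-labelled library. That was 1.68-fold (1.31 to 2.14) its basal level with sitagliptin and 1.96-fold (1.45 to 2.60) with PBS. In the suprabasal cluster led by Lor, a gene of the granular layer, Wnt7b held 87.1 CPM with sitagliptin and 82.9 CPM with PBS. Wnt4 had 94.4 CPM with sitagliptin and 78.9 CPM with PBS in those cells, far under its basal level. Wnt7b is overlapped on the opposite strand by AU022754, and no source used here says whether strand entered the counting.

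Wnt16, a ligand studied chiefly in bone and joints, was a basal gene at a lower level, with 157 UMIs or 21.0 CPM (17.8 to 24.6) in the sitagliptin-labelled library and 347 UMIs or 29.3 CPM (26.3 to 32.6) in the PBS-labelled library. Its basal level was 3.09-fold (2.49 to 3.83) the suprabasal level with sitagliptin and 4.21-fold (3.32 to 5.38) with PBS. Wnt10b, a canonical ligand known from hair follicle regrowth, had 7.09 CPM with sitagliptin and 8.20 CPM with PBS in basal cells. In the Dct-led cluster it had 12.8 CPM (6.40 to 22.9) with sitagliptin and 19.0 CPM (10.9 to 30.9) with PBS. The outer root sheath or bulge had 4 Wnt10b UMIs in the sitagliptin-labelled library and 0 in the PBS-labelled library. Its level in the Dct-led cluster was 13.5-fold (4 to 58.2) that level in the sitagliptin-labelled library and at least 6.64-fold higher in the PBS-labelled library, taking 3 counts as the limit that a count of 0 allows.

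Wnt11, a ligand of mostly non-canonical signalling, had its highest level among the named keratinocyte classes in the upper follicle. The upper follicle held 80 of its 132 UMIs in the sitagliptin-labelled library (60.6%) and 46 of its 105 UMIs in the PBS-labelled library (43.8%). Its level there was 5.77 CPM (4.57 to 7.18) with sitagliptin and 3.88 CPM (2.84 to 5.17) with PBS, and in basal cells it was 0.268 CPM with sitagliptin and 0.507 CPM with PBS. The upper follicle exceeded the suprabasal level 6.53-fold (4.15 to 10.6) in the sitagliptin-labelled library and 6.12-fold (2.86 to 15) in the PBS-labelled library. In the PBS-labelled library a Retnla-led myeloid cluster had 6.85 CPM (4.34 to 10.3) from 23 UMIs, which overlapped the upper follicle interval.

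Lef1, the TCF factor tied to hair germ and matrix cells, had its highest level in the Dct-led cluster in both libraries. The Dct-led cluster held 50 of 111 Lef1 UMIs in the sitagliptin-labelled library (45.0%) and 51 of 89 in the PBS-labelled library (57.3%), while it held 1.01% of all UMIs with sitagliptin and 1.47% with PBS. The level there was 58.2 CPM (43.2 to 76.8) with sitagliptin and 60.7 CPM (45.2 to 79.8) with PBS. Without the cells that carried a melanocyte UMI, an alternative chosen after the data were seen, it was 51.8 CPM with sitagliptin and 65.2 CPM with PBS. Suprabasal cells held 17 Lef1 UMIs with sitagliptin and 2 with PBS, and the Malat1-led cluster 16 with sitagliptin and 0 with PBS. Basal cells had 0 UMIs of Lef1 in the sitagliptin-labelled library, which allows up to 0.401 CPM, and 1 UMI in the PBS-labelled library. The level in the Dct-led cluster was at least 145-fold higher than that limit in the sitagliptin-labelled library. The next named class was the outer root sheath or bulge, where Lef1 had 16 UMIs with sitagliptin (3.79 CPM, 2.17 to 6.16) and 17 UMIs with PBS (16.3 CPM, 9.47 to 26.0). These intervals did not overlap, but the gene fell under the minimum of 50 set for a comparison.

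Tcf7, the TCF factor best known from T cells, shared the Dct-led cluster with Lef1 but was also present in other keratinocytes. It had 29.1 CPM (18.8 to 43.0) in the Dct-led cluster of the sitagliptin-labelled library and 53.6 CPM (39.1 to 71.7) in that of the PBS-labelled library. These levels were 3.25-fold (1.97 to 5.21) those of basal cells with sitagliptin and 6.89-fold (4.71 to 9.95) with PBS. Basal cells had 8.96 CPM with sitagliptin and 7.78 CPM with PBS. The upper follicle, at 7.93 CPM with sitagliptin and 7.67 CPM with PBS, did not differ from basal cells beyond the intervals. T cells and innate lymphoid cells, the lineage that defines the gene, had 22.6 CPM from 7 UMIs with sitagliptin and 69.8 CPM from 32 UMIs with PBS. Antisense or overlapping genes are annotated at Lef1, Tcf7 and Axin2.

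Axin2 was spread over all keratinocyte classes compared. It had 57.9 CPM with sitagliptin and 48.3 CPM with PBS in basal cells and 57.8 CPM with sitagliptin and 47.2 CPM with PBS in the upper follicle. The basal level stood to that of the upper follicle at a ratio of 1 (0.889 to 1.13) with sitagliptin and 1.02 (0.908 to 1.15) with PBS. Suprabasal cells had 41.7 CPM with sitagliptin and 32.1 CPM with PBS, and the Dct-led cluster 59.4 CPM with sitagliptin and 44.1 CPM with PBS. The outer root sheath or bulge was lowest of the 4 classes, at 31.5 CPM with sitagliptin and 20.1 CPM with PBS. Macrophage-like cells of the PBS-labelled library had 9.68 CPM. The gene most like Axin2 over the clusters of the PBS-labelled library was Bcl11b, a zinc finger factor of T cells and epidermis (r = 0.944 over 20 clusters, and 0.791 over 22 clusters of the sitagliptin-labelled library).

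**Figure D1:**
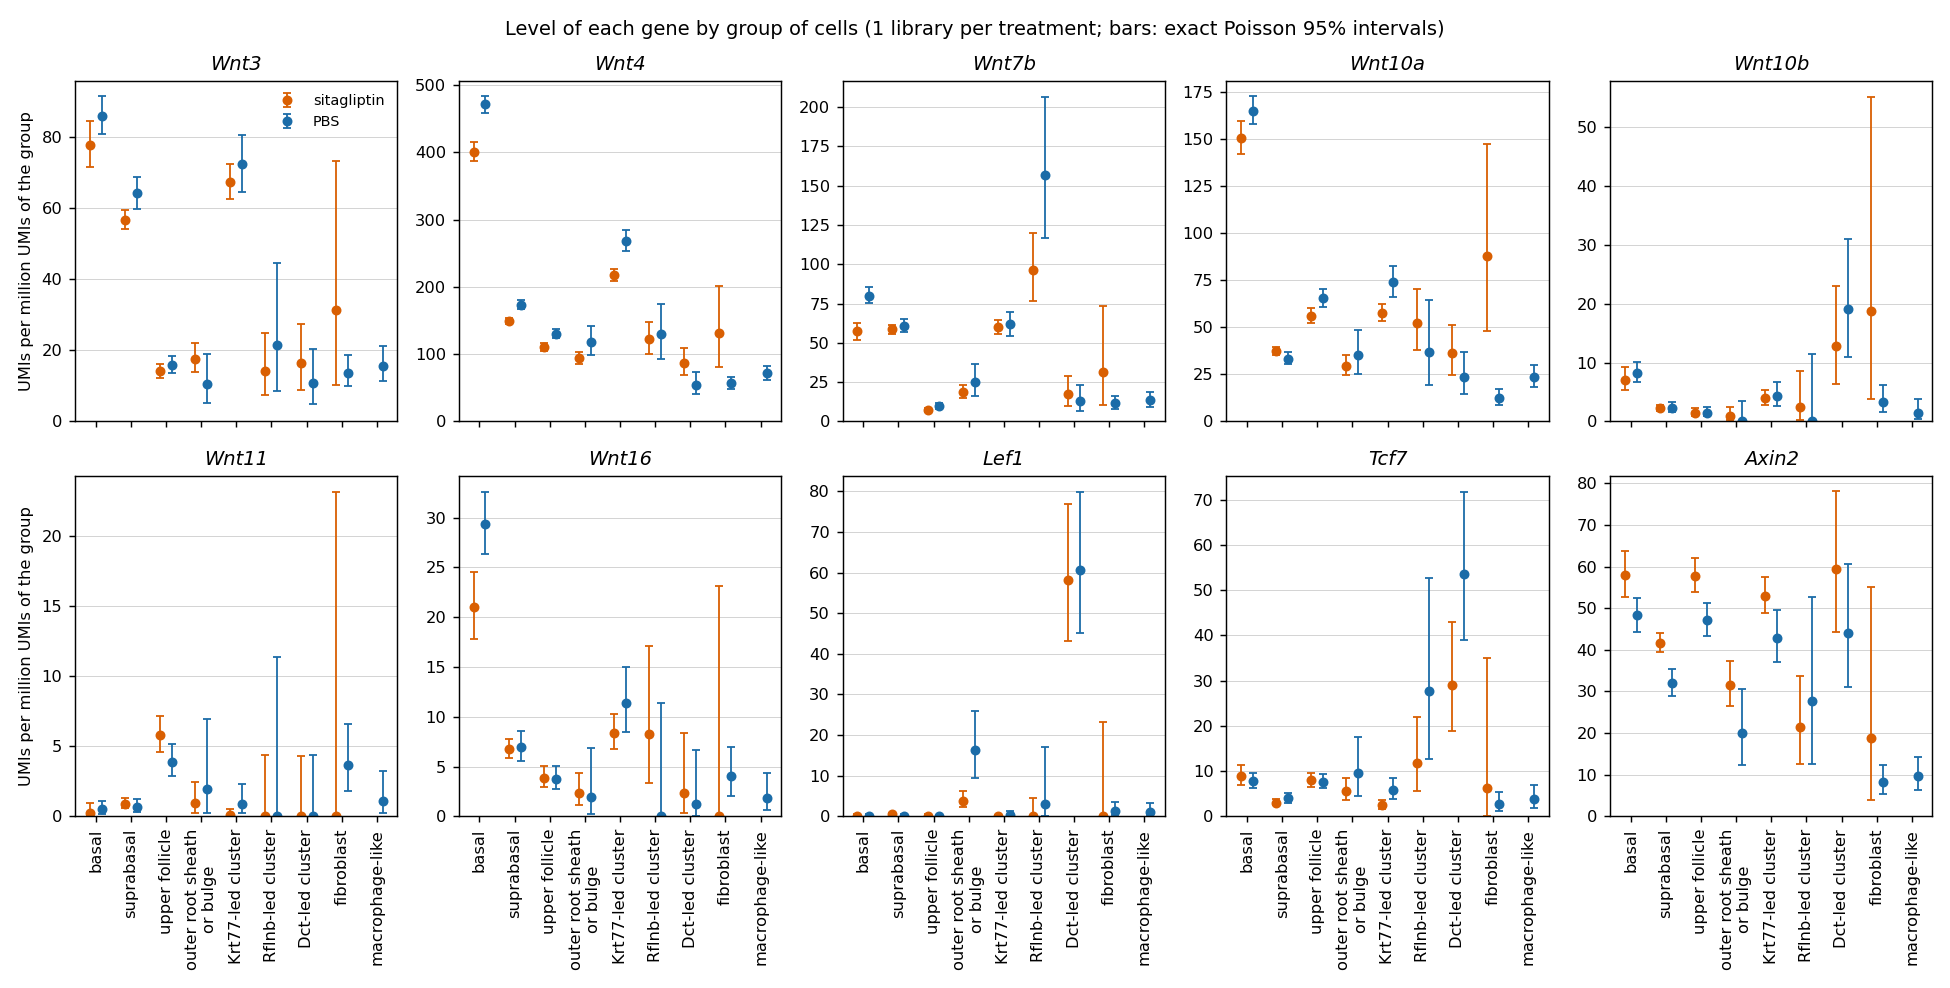
Level of each of the 10 genes in UMIs per 1000000 UMIs of the group, for 9 groups of cells, with the sitagliptin-labelled library in orange to the left and the PBS-labelled library in blue to the right; bars are exact Poisson 95% intervals, and a library with under 50 cells in a group has no point. Wnt4, Wnt10a and Wnt16 are highest in basal cells, Wnt7b in the Rflnb-led cluster, Wnt11 in the upper follicle among the keratinocyte groups, and Lef1 and Tcf7 in the Dct-led cluster, in both libraries.

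In fibroblasts, the PBS-labelled library (479 cells, Col1a1 at 5660 CPM) gave levels at or under those of macrophage-like cells for 4 ligands, Axin2 and Tcf7. Wnt4 had 57.2 CPM in fibroblasts and 71.8 CPM in macrophage-like cells, a ratio of 0.796 (0.644 to 0.982), and Wnt10a stood at 0.527 (0.342 to 0.804). Wnt10b, Wnt11, Wnt16 and Lef1 lay above the macrophage-like level, from 4 to 12 UMIs in fibroblasts, with intervals of the ratio that included 1. Wnt2, a ligand outside the 10 genes, showed the contrast: it had 69 UMIs or 23.1 CPM in these fibroblasts and 0 UMIs in macrophage-like cells. The sitagliptin-labelled library held 57 fibroblasts, in which Col1a1 was at 2250 CPM and the keratinocyte gene Krt14 at 9360 CPM, against 2010 CPM of Krt14 in the fibroblasts of the PBS-labelled library. Wnt10a was at 87.8 CPM in those 57 cells from 14 UMIs, against 12.4 CPM in fibroblasts with PBS. Wnt4 was at 132 CPM from 21 UMIs, against 57.2 CPM in fibroblasts with PBS. Of all genes with at least 50 UMIs, 51.9% were at least 1.5-fold apart there, and the part of keratinocyte RNA in these values was not tested.

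Between the libraries, genes were counted as apart when their class levels differed at least 1.5-fold in either direction, among genes with at least 50 UMIs in the class over both libraries. In such sums, fewer cells that express a gene and less RNA per cell cannot be told apart. None of the 8 genes that reached the minimum in basal cells was apart, where 6.05% of all 10428 genes were. The count was also 0 of 8 in suprabasal cells and in the upper follicle, beside 11.6% and 4.88% of all genes. In the outer root sheath or bulge 2 of 5 were apart, Wnt3 and Axin2, beside 13.8% of all genes. The intervals of both ratios included 1. With each cell thinned to 1000 UMIs the Wnt3 ratio there was 0.955, from under 50 UMIs, while Axin2 was at 0.979 as the mean of the CPM of each cell. In the Krt77-led cluster 1 of 8 was apart (Tcf7, 5.62% of all genes), in the Rflnb-led cluster 1 of 3 (Wnt7b, 13.5%), and in the Dct-led cluster 3 of 5 (Wnt4, Wnt10a and Tcf7, 12.8%). With thinned cells no gene reached the minimum in the Dct-led cluster, so no count could be made there. In basal cells the count with thinned cells was 3 of 6 (Wnt7b at 0.542, Wnt16 at 0.422 and Axin2 at 1.53). As the mean of the CPM of each cell, which also weighs every cell alike, it was 0 of 8 there. Wnt7b then stood at 0.674, Wnt16 at 0.695 and Axin2 at 1.15. The share of all genes apart was not computed with thinned cells or for this mean.

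Axin2 was higher in the sitagliptin-labelled library by a small margin in every class compared. The ratio of its level with sitagliptin to that with PBS was 1.2 (1.06 to 1.36) in basal cells, 1.30 (1.16 to 1.46) in suprabasal cells, 1.22 (1.10 to 1.37) in the upper follicle and 1.57 (0.986 to 2.62) in the outer root sheath or bulge. It was above 1 in all 11 keratin-bearing clusters with at least 50 Axin2 UMIs, the Dct-led one included, from 1.12 to 1.64, and the interval lay above 1 in 5 of them. Under that minimum, the Rflnb-led cluster stood at 0.771 (0.329 to 1.95) from 27 UMIs. A Krt15-led cluster of the outer root sheath or bulge stood at 1.08 (0.327 to 4.6) from 16 UMIs. Outside these clusters, Langerhans or dendritic cells, with 142 UMIs, stood at 0.859 (0.606 to 1.21). With each cell thinned to 1000 UMIs, 5.19% (4.07 to 6.51) of basal cells of the sitagliptin-labelled library and 3.55% (2.58 to 4.76) of those of the PBS-labelled library had an Axin2 UMI, with intervals that overlap. Every retained cell was deep enough for thinning. Without it the shares were 23.7% with sitagliptin, at a median depth of 4630 UMIs, and 33% with PBS, at 8304 UMIs. Macrophage-like cells with PBS, at a median of 4520 UMIs, had Axin2 in 4.32% of cells before and 0.432% after thinning. Among 8418 genes measured in all 4 classes, 18.8% were higher in all 4, as Axin2 was. At least 1.2-fold higher in each were 2.74%, but that bar was set at the smallest ratio of Axin2 itself, so the share describes and does not test.

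Wnt4 lay in the other direction. Its ratio was 0.851 (0.814 to 0.890) in basal cells, 0.857 (0.814 to 0.903) in suprabasal cells, 0.849 (0.791 to 0.912) in the upper follicle and 0.792 (0.646 to 0.977) in the outer root sheath or bulge. Of all 8418 genes, 13.9% were lower in all 4 classes and 1.28% had a ratio of at most 0.857 in each, a bar set at the largest ratio of Wnt4 itself. The ratio was under 1 in 11 of 13 keratin-bearing clusters and its interval lay under 1 in 7. The exceptions were the Lor-led suprabasal cluster, at 1.2 (0.953 to 1.51), and the Dct-led cluster. In the Dct-led cluster Wnt4 had 75 UMIs (87.4 CPM, 68.7 to 110) in the sitagliptin-labelled library and 46 UMIs (54.8 CPM, 40.1 to 73.1) in the PBS-labelled library, a ratio of 1.60 (1.09 to 2.36). Its level with PBS lay under that of macrophage-like cells. Krt5, a keratin of basal cells, moved the same way in this cluster, with 5060 CPM with sitagliptin and 3150 CPM with PBS, as did Krt14 (given above). The 6 melanocyte markers summed to 652 CPM with sitagliptin and 1570 CPM with PBS there, and all 6 were lower with sitagliptin. The part of other cells or their RNA in these ratios was not tested. The thinned share of basal cells with a Wnt4 UMI was 30.3% (27.9 to 32.9) with sitagliptin and 33.1% (30.5 to 35.9) with PBS, intervals that overlap, and it was 3.02% in macrophage-like cells with PBS. Unthinned, the shares were 74.9% of basal cells with sitagliptin, 90.7% with PBS and 13.4% in macrophage-like cells of the PBS-labelled library.

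**Figure D2:**
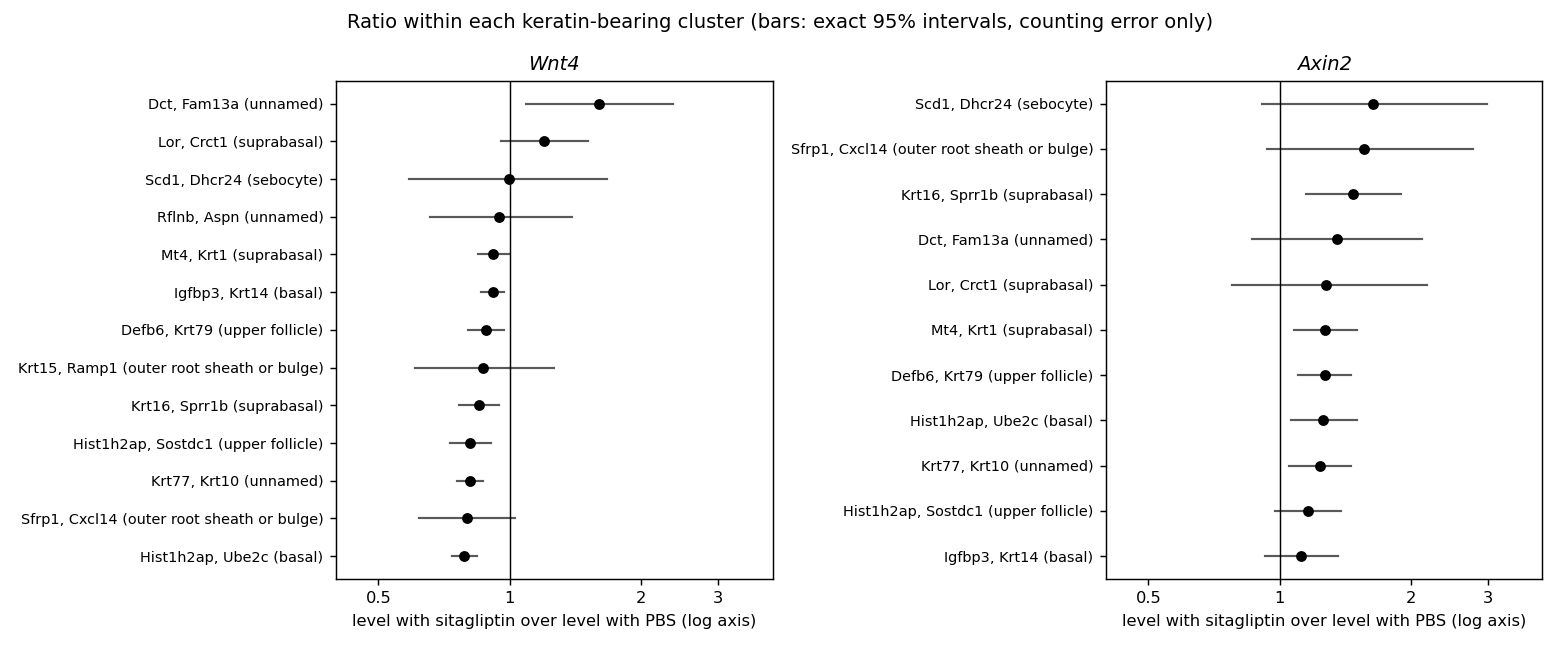
Ratio of the level in the sitagliptin-labelled library to that in the PBS-labelled library (log axis) for Wnt4 and Axin2 within each keratin-bearing cluster with at least 50 UMIs of the gene, each named by its leading genes and its class; points are ratios and bars exact 95% intervals of counting error. All 11 Axin2 ratios lie above 1 and 11 of 13 Wnt4 ratios lie under 1.

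In basal cells Wnt7b and Wnt16 had the smallest ratios of the 8 genes measured. Wnt7b had 428 UMIs (57.3 CPM, 52.0 to 63.0) with sitagliptin and 948 UMIs (80.1 CPM, 75.1 to 85.4) with PBS, a ratio of 0.715 (0.636 to 0.802). The ratio of Wnt16 was 0.716 (0.589 to 0.867). For Wnt3 it was 0.905 (0.816 to 1) and for Wnt10a 0.913 (0.847 to 0.983). In suprabasal cells the ratios were 0.963 (0.884 to 1.05) for Wnt7b and 0.976 (0.756 to 1.27) for Wnt16. Wnt7b also lay under 1 in the upper follicle, at 0.737 (0.558 to 0.972), and in the outer root sheath or bulge, at 0.753 (0.478 to 1.22), while Wnt16 stood at 1.03 (0.678 to 1.56) in the upper follicle. The directions outside basal cells did not hold throughout: Wnt7b reached 1.64 in the upper follicle when thinned cells were clustered anew and 1.51 in the outer root sheath or bulge when they were not, and Wnt16 reached 1.86 in suprabasal cells with thinned cells. The thinned shares of basal cells were 4.22% (3.22 to 5.44) with sitagliptin and 7.93% (6.47 to 9.60) with PBS for Wnt7b, and 1.78% (1.14 to 2.64) with sitagliptin and 4.13% (3.08 to 5.41) with PBS for Wnt16, so the intervals did not overlap for either gene. Before thinning they were 25.1% with sitagliptin and 47.2% with PBS for Wnt7b, and 9.86% with sitagliptin and 22.6% with PBS for Wnt16. Thinned macrophage-like cells with PBS had Wnt7b in 0.648% and Wnt16 in 0 of 463 cells, which allows up to 0.648%. No difference between ratios was tested.

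**Figure D3:**
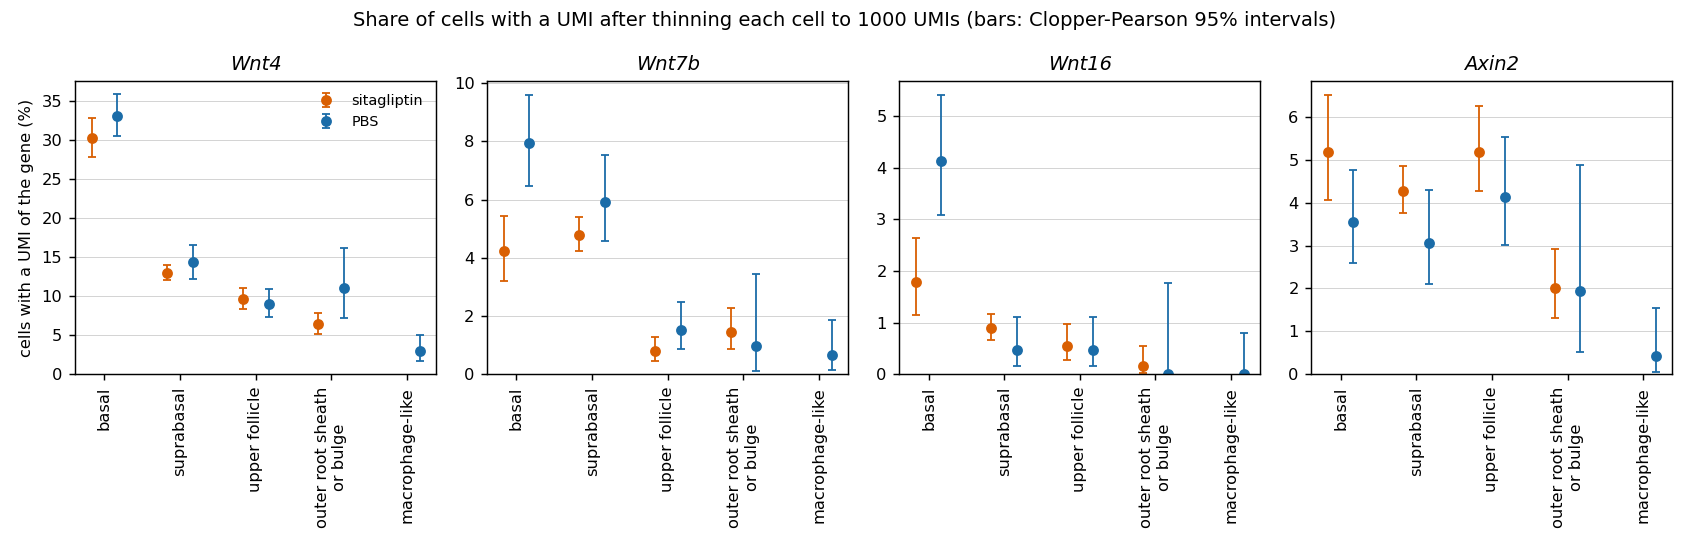
Percentage of cells with a UMI of Wnt4, Wnt7b, Wnt16 or Axin2 after every cell was thinned to 1000 UMIs, in 4 keratinocyte classes and macrophage-like cells, with the sitagliptin-labelled library in orange to the left and the PBS-labelled library in blue to the right; bars are Clopper-Pearson 95% intervals. In basal cells the Wnt7b and Wnt16 shares are lower with sitagliptin (4.22% and 1.78%) than with PBS (7.93% and 4.13%), and the Axin2 shares are 5.19% with sitagliptin and 3.55% with PBS, with intervals that overlap.

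Wnt10a stood at 1.12 (1 to 1.26) in suprabasal cells and at 0.856 (0.774 to 0.947) in the upper follicle. Neither direction held throughout: with each library clustered on its own the upper follicle ratio was 1.51, and the suprabasal ratio ranged from 0.811 to 1.67 over the alternatives. Wnt11 had a ratio of 1.49 (1.02 to 2.19) in the upper follicle, just short of the 1.5-fold bar, at 1.65 with thinned cells in the same classes but at 0.514 when the thinned cells were clustered anew, an alternative chosen after the data were seen. Both values with thinned cells rest on under 50 UMIs. Tcf7 was lower in the Dct-led cluster, at 0.544 (0.319 to 0.906) from 25 UMIs with sitagliptin and 45 with PBS, and in the Krt77-led cluster, at 0.441 (0.249 to 0.783) from 28 UMIs with sitagliptin and 26 with PBS. In the same clusters Lef1 stood at 0.959 (0.636 to 1.45) in the Dct-led one and had 0 UMIs with sitagliptin and 1 with PBS in the Krt77-led one. Wnt7b was lower in the Rflnb-led cluster, at 0.613 (0.426 to 0.888). Summed over all keratinocyte classes, the Malat1-led, Krt77-led and Rflnb-led clusters and a Scd1-led cluster of 13 cells, all with PBS, Wnt4 stood at 0.674 (0.657 to 0.691) and Wnt16 at 0.633 (0.564 to 0.712), further from 1 than in any of the 4 classes, while Axin2 stood at 1.11 (1.05 to 1.17). Basal cells, where Wnt4 and Wnt16 are highest, were 7.34% of retained cells in the sitagliptin-labelled library and 20.4% in the PBS-labelled library. Of the 10 genes, 1 was apart in that sum (Wnt16), beside 10.5% of all genes.

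**Figure D4:**
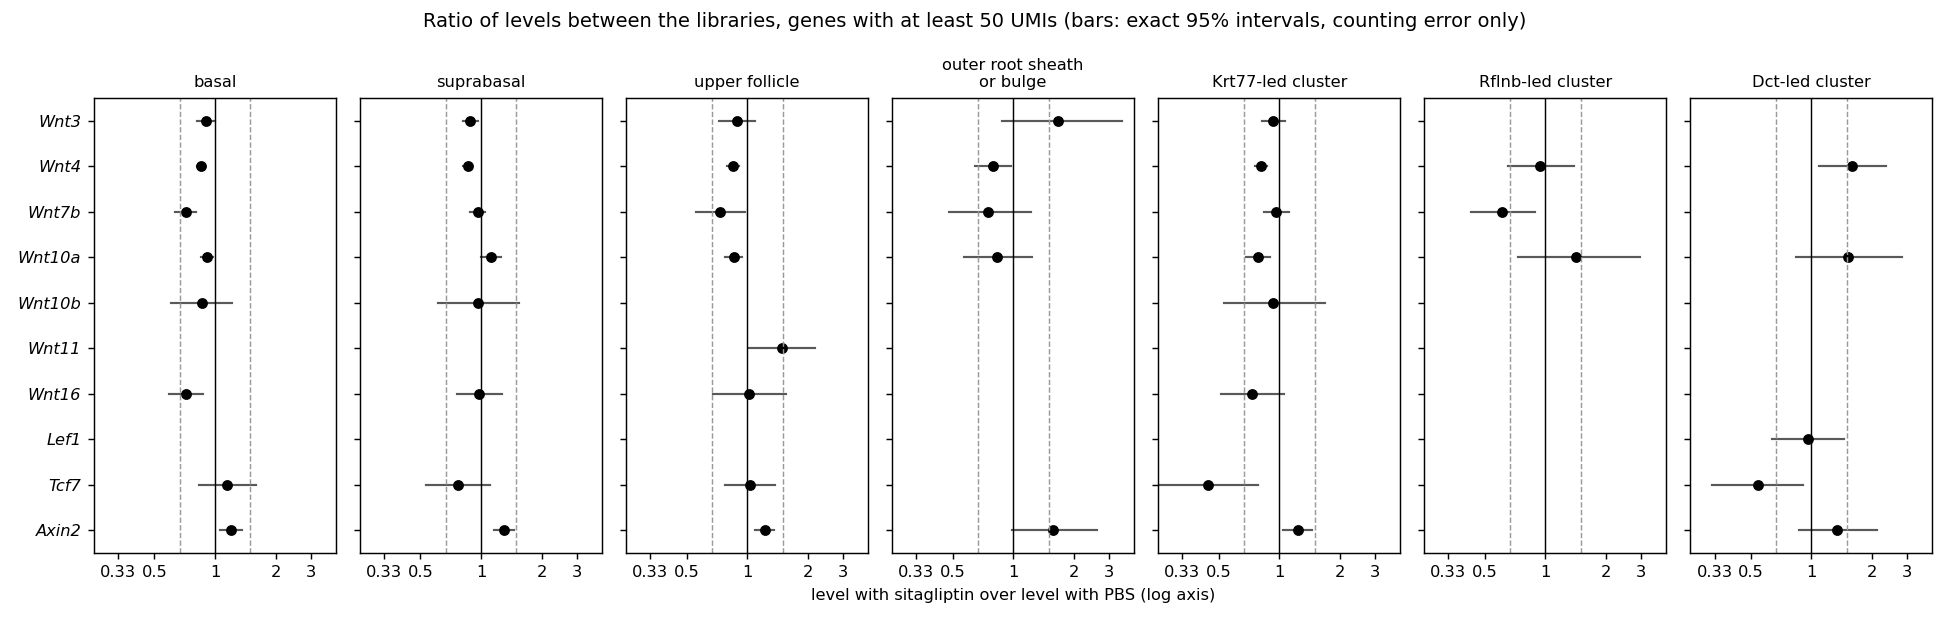
Ratio of the level in the sitagliptin-labelled library to that in the PBS-labelled library (log axis) for each gene with at least 50 UMIs, in 4 keratinocyte classes and 3 unnamed keratin-bearing clusters; points are ratios, bars exact 95% intervals of counting error, and dashed lines mark 1.5-fold in either direction. Wnt4 lies under 1 in 6 of the 7 panels and Axin2 above 1 in each of its 6 panels.

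The rest of the pathway was read from lists of 67 other genes, all found in the tables. In basal cells 3 of the 44 with at least 50 UMIs were higher by at least 1.5-fold and none was lower, beside 3.39% and 2.66% of all genes, and their median log2 ratio was 0.08 beside 0.01 for all genes. In suprabasal cells 10 of 46 were higher and none lower, beside 9.26% and 2.37% of all genes, with a median of 0.19 beside 0.06. With the suprabasal clusters that held at least 50 cells in each library alone, a choice made after the data were seen, 1 of 43 was apart. The share of all genes was not computed for this choice. The gene apart was Tle4, a co-repressor that binds TCF factors, and it was higher in each group given here. Tle4 had 136 CPM with sitagliptin and 74.0 CPM with PBS in basal cells, a ratio of 1.83 (1.67 to 2.01). It stood at 1.71 (1.57 to 1.85) in suprabasal cells, 1.99 (1.83 to 2.15) in the upper follicle, 1.66 (1.39 to 2) in the outer root sheath or bulge and 2.09 (1.52 to 2.89) in the Dct-led cluster.

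Wls, the carrier that brings Wnt ligands to the cell surface, was under the bar, at 1.33 (1.25 to 1.41) in basal cells and 1.42 (1.32 to 1.53) in suprabasal cells. Lrp6, a Wnt co-receptor, stood at 1.05 (0.923 to 1.2) in basal cells, and Ctnnb1, the gene of β-catenin, was among 10 transduction genes of which none was apart in basal or suprabasal cells or the upper follicle. In the upper follicle 2 of 46 genes were higher and 1 lower, beside 2.65% and 2.23% of all genes. In the outer root sheath or bulge 2 of 41 were higher (Fzd10, a Wnt receptor, and Tle4) and 3 lower, beside 8.62% and 5.18% of all genes. The lower genes were Axin1, a scaffold of the complex that degrades β-catenin, at 0.633 (0.431 to 0.947), the cell cycle gene Ccnd1 at 0.613 (0.507 to 0.743), and Lgr5, an R-spondin receptor and target of the pathway. Lgr5 had 175 CPM with sitagliptin and 280 CPM with PBS there, a ratio of 0.626 (0.546 to 0.719). In other classes, where its level was far lower, Lgr5 was among the higher genes counted above, with 5.62 CPM with sitagliptin and 1.35 CPM with PBS in basal cells and 6.73 CPM with sitagliptin and 0.634 CPM with PBS in suprabasal cells. Cd34 and Lhx2, also on the marker list of the outer root sheath or bulge, were higher there too. In basal cells Cd34 had 8.7 CPM with sitagliptin and 3.47 CPM with PBS, and Lhx2 15.8 CPM with sitagliptin and 5.41 CPM with PBS. In suprabasal cells Cd34 had 12.4 CPM with sitagliptin and 2.14 CPM with PBS, and Lhx2 21.3 CPM with sitagliptin and 2.14 CPM with PBS. The other markers of that list are not given here, and the part of follicle RNA was not tested. Axin2, a target of the same pathway, lay above 1 in the outer root sheath or bulge and Ccnd1 and Lgr5 under 1.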

How the data were processed

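UMI counts per gene and barcode were used as the authors deposited them, not normalized, for 31053 genes in each of 2 libraries. The submitters' processing notes name Cell Ranger 3.1.0 and mm10. The calling of cells and the use of strand in counting are not given in these sources. The tables held 22085 barcodes and 95047000 UMIs for the sitagliptin-labelled library and 10456 barcodes and 70729930 UMIs for the PBS-labelled library. Retained barcodes had 500 genes or more, 1000 UMIs or more and no more than 10% of mitochondrial UMIs (83.2% with sitagliptin and 56.7% with PBS). Of retained cells, 44.5% with sitagliptin and 8.31% with PBS had under 2000 UMIs. Scrublet marked 0 cells with sitagliptin and 2 with PBS as doublets, which is too low a number to be used, and doublets were kept.

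The 10 genes and all gene and marker lists were chosen with earlier results of these data known. Both libraries were clustered together in scanpy 1.11.5 (counts scaled to 10000, 2000 variable genes without the 10 genes, 30 principal components, 15 neighbours, leidenalg 0.10.2 at resolution 1, seed 1). Clusters were named by the marker list with the highest mean score, and stayed unnamed when the margin was under 0.1, when under 3 markers were detected, or when their leading genes went against the name. These naming thresholds were set after the data were seen. Cells called a class may therefore differ from those the authors would call so.

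UMIs were summed per library and group of cells and given per 1000000 UMIs (CPM) with exact Poisson 95% intervals (scipy 1.17.1). Ratios, sitagliptin over PBS, have exact conditional binomial intervals and were given for groups of at least 50 cells in each library. Shares of cells have Clopper-Pearson intervals. UMIs of 1 library are not replicates of a treatment, so no p-value was computed. The ratio step was tested on simulated data. Besides the 10 genes, the text names listed pathway genes at least 1.5-fold apart and the leading members of a list, and for each of the 10 genes with at least 200 UMIs the genes of most similar level over clusters (up to 3, of which the first is given for Wnt10a and Axin2). Genes over 10 times higher in another class were counted and not named, with the exception of Lgr5 and of cell type markers. Sebocytes and companion or inner bulge cells were not compared, because 1 library held few of them or filled their clusters differently. Suprabasal cells were compared although the libraries filled their clusters differently too. Sebocytes numbered 1476 with sitagliptin and 75 with PBS. Of the 5 genes at the minimum there, 4 were higher (Wnt3, Wnt4, Wnt7b and Wnt10a), with a median log2 ratio of 1.19 beside -0.06 for all genes. In the sebocyte cluster of 109 cells with sitagliptin and 66 with PBS, Wnt4 stood at 0.994 (0.586 to 1.67). Of the gene identifiers, 99.9% matched GENCODE vM21, from which overlaps were read. Alternatives were other cell filters (each followed by new clustering), clusterings, thinned cells, minimum counts, size bars and ways of averaging. Figures were drawn with matplotlib 3.10.9.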

Additional observations from a re-analysis of the deposited data

Results flagged for a closer look

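Ratios of Wnt4 pointed in opposite directions between the Dct-led cluster, which scored highest for melanocyte markers, and the groups of keratinocytes. The level with sitagliptin over that with PBS was 1.60 in the Dct-led cluster, against 0.851 in basal cells, 0.857 in suprabasal cells, 0.849 in the upper follicle, 0.792 in the outer root sheath or bulge and 0.81 in the Krt77-led cluster. The interval in the Dct-led cluster was 1.09 to 2.36 and did not overlap those of the groups just listed. It did overlap those of the Rflnb-led cluster, at 0.946 (0.655 to 1.39), and of the Lor-led suprabasal cluster, at 1.2 (0.953 to 1.51). Without cells that carried a melanocyte UMI, an alternative chosen after the data were seen, the ratio in the Dct-led cluster was 2.19 (1.31 to 3.81). It was 1.42 with cells thinned to 1000 UMIs and 1.05 as the mean of the CPM of each cell.

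Wnt10a stood at 1.12 in suprabasal cells, against 0.913 in basal cells, 0.856 in the upper follicle and 0.782 in the Krt77-led cluster. The suprabasal cells of the libraries lay in different clusters, and over the clusters with at least 50 cells in each library alone, a choice made after the data were seen, the Wnt10a ratio was 0.843, under 1, while with these genes allowed for clustering it was 1.67. With 1 library per treatment these differences were not tested.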

How the results depend on the processing

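No paired analysis was possible because each treatment had 1 library and no test was made. Of the 34 ratios, 12 stayed on the same side of 1 under all alternatives, and 60 of 426 alternative values lay on the other side. Axin2 stayed above 1 in basal cells (1.12 to 1.53), suprabasal cells (1.21 to 1.46) and the upper follicle (1.02 to 1.38). In basal cells Wnt4 (0.822 to 0.969), Wnt7b (0.529 to 0.721) and Wnt16 (0.422 to 0.717) stayed under 1. In the upper follicle Wnt7b ranged from 0.515 to 1.64, Wnt10a from 0.608 to 1.51, Wnt11 from 0.514 to 1.72 and Wnt16 from 0.827 to 6.05. In other classes Wnt4 crossed 1, at 1.06 in suprabasal cells with these genes allowed for clustering, 1.06 in the upper follicle with thinned cells (1.09 with thinned cells clustered anew, which was chosen after the data were seen and put 6795 cells with sitagliptin and 920 with PBS in that class) and 1.03 in the outer root sheath or bulge with separate clustering.

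In the outer root sheath or bulge the Wnt3 ratio of 1.67 was 0.922 with each library clustered on its own, 0.955 with thinned cells, 0.717 with thinned cells clustered anew and 0.872 as the mean of each cell's CPM, where Axin2 was 0.979. In the Dct-led cluster the Wnt10a ratio of 1.52 was 0.853 with thinned cells, at 15.8 CPM with sitagliptin and 18.5 CPM with PBS. The values with thinned cells in this paragraph rest on under 50 UMIs each. The cause of these changes was not tested.

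The share of all genes apart was not computed under the alternatives, so the counts below have no background beside them. The number of genes that reached the minimum also changed with the setting. Members at least 1.5-fold apart, 0 of 8 in basal cells, numbered 3 of 6 with thinned cells, clustered anew or not (Wnt7b, Wnt16 and Axin2 in both), and 1 with separate clustering, with at least 1000 genes and 2000 UMIs, with at most 5% mitochondrial UMIs, without the 8% highest doublet scores and with no minimum count. In suprabasal cells, also 0, they numbered 2 with these genes allowed for clustering, and 1 at resolution 0.5, with thinned cells, with the stricter gene and UMI filter, without the highest doublet scores, with clusters weighted equally, with no minimum count and with clusters of at least 50 cells in each library, a choice made after the data were seen, as was leaving out barcodes found in both libraries. In the upper follicle, also 0, they numbered 3 with separate clustering and with thinned cells clustered anew, 2 with at most 5% mitochondrial UMIs and as the mean of each cell's CPM, and 1 at resolution 2, with thinned cells and with these genes allowed for clustering. In the outer root sheath or bulge the count of 2 became 1 at resolution 0.5, with thinned cells, with the stricter filter, without the highest doublet scores and with clusters weighted equally, 4 with a minimum of 20 UMIs, 5 with none and 0 at a bar of 2-fold. In the Dct-led cluster the count of 3 became 0 at 2-fold, 1 as the mean of each cell's CPM and 5 with no minimum. With thinned cells no gene of that cluster reached 50 UMIs, so that setting gave no count. At 2-fold the other pathway genes apart numbered 1 in basal cells, 5 in suprabasal cells, 0 in the upper follicle and 0 in the outer root sheath or bulge. With clusters of at least 50 cells in each library they numbered 1 in suprabasal cells. At most 5% mitochondrial UMIs left no outer root sheath or bulge value. Depth limits Wnt10b, Wnt11, Lef1 and Tcf7, which had under 500 UMIs in each library.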

Other observations

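The Dct-led cluster also held UMIs of Nkd1 and Notum, feedback inhibitors of Wnt signalling, which were singled out after their values were seen. Nkd1 had 13 UMIs (15.1 CPM) in the sitagliptin-labelled library and 11 UMIs (13.1 CPM) in the PBS-labelled library there, while basal cells had 0 UMIs with sitagliptin and 1 UMI with PBS. Notum had 6 UMIs with sitagliptin and 2 with PBS there, and 0 in the 4 named keratinocyte classes of either library. These counts lie under the minimum of 50 UMIs.

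Wnt4 also appeared in epidermal immune cells. Langerhans or dendritic cells had 167 CPM with sitagliptin and 203 CPM with PBS, and T cells or innate lymphoid cells 148 CPM with sitagliptin and 135 CPM with PBS, above the 71.8 CPM of macrophage-like cells of the PBS-labelled library. Krt14 was at 9210 CPM with sitagliptin and 6140 CPM with PBS in the T cells or innate lymphoid cells and at 2560 CPM in the macrophage-like cells of the PBS-labelled library. Wnt4 was not alone in the Langerhans or dendritic cells. With sitagliptin they had 59.6 CPM of Wnt3, 60.2 of Wnt7b, 51.5 of Wnt10a and 37.9 of Axin2. With PBS they had 49.5 CPM of Wnt3, 51.2 of Wnt7b, 58.2 of Wnt10a and 44.1 of Axin2. Their Krt14 level is not given here, and the part of keratinocyte RNA in the values of these immune cells was not tested.

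Some of the ligand genes have another Wnt gene beside them on mm10, with no coding gene between the pair. Wnt10a lies 6.19 kb from Wnt6, Wnt10b 11.7 kb from Wnt1 and Wnt3 24.3 kb from Wnt9b. Of these pairs, Wnt10a and Wnt6 lie on the same strand, and Wnt6 had 15.7 CPM with sitagliptin and 19.3 CPM with PBS in basal cells, against 3.84 CPM with sitagliptin and 2.38 CPM with PBS in suprabasal cells. Genes whose levels over the 20 clusters of the PBS-labelled library were most like those of the other ligands were Wnk2 for Wnt3 (r = 0.941), Gnai1 for Wnt4 (0.923), H60c for Wnt7b (0.873), and the ligand gene Wnt3a for Wnt16 (0.883, with 0.62 over 22 clusters of the sitagliptin-labelled library).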
